A study of Mus musculus with 4 samples.

Results

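Introns far from promoters were described by the DNA methylation of 10934 windows of 1000 bp in 4006 autosomal protein-coding genes of the mouse. A CpG site, with each strand of a CpG counted as its own site, entered when at least 20 reads covered it in each of 4 tumors. It had to lie in an intron of a protein-coding gene, in no annotated exon, and more than 5 kb from every annotated transcription start site (TSS). Windows with 3 to 19 such sites were kept. They made up 14.0% of the 78004 windows of any kind with at least 3 qualified sites, held 50846 of 1081201 qualified sites (4.70%), and reached 19.3% of the 20807 autosomal protein-coding genes. The value of a window in a tumor was the mean percent of methylated reads over its sites, and the value of a gene was the mean over its windows.

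The method was RRBS (reduced representation bisulfite sequencing), which reads the CpG-rich fragments of a restriction digest after unmethylated cytosines have been converted. Lung adenocarcinoma cells of the 344SQP (parental) line, or of the 344SQR line derived from it with acquired resistance to anti-PD1, were injected under the skin of the leg of female 129Sv/Ev mice aged 12 to 16 weeks. Both lines come from a mouse model with mutant p53 (p53R172HΔg/+), each line was represented by 2 tumors, and 344SQR stands for a single resistant line. Every mouse was given anti-PD1 at 10 mg/kg from day 4, 4 doses in all, and the tumors were taken 24 h after the last dose, so the comparison is between treated tumors only. DNA came from whole tumors, which also hold leukocytes, fibroblasts and vessels of the host, so a difference within a cell type and a difference in the share of that cell type cannot be told apart.

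In mammals, most CpGs inside genes are methylated and CpG-rich promoters are not. Passage of RNA polymerase through a gene leaves histone marks that recruit the methyltransferases, and introns of transcribed genes usually hold dense methylation. In tumors, loss of methylation is known to be concentrated in long, weakly transcribed stretches of the genome, where many long genes with restricted expression lie.

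Coverage summed over all CpG sites was 116794455 in parental replicate 1, 138331886 in parental replicate 2, 160548303 in resistant replicate 1 and 174689402 in resistant replicate 2, the order in which values are given below. In the far-intron windows the median coverage of a site was 79.4 and 91.8 reads in parental and 105 and 104 reads in resistant tumors. A window held a median of 4 qualified sites, and 4137 windows (37.8%) held 3. Of the genes, 1986 had a single window and 601 had at least 5. The windows lay a median of 15.8 kb from the nearest TSS, with a median GC content of 49.4% and a median of 17 CpGs in the reference sequence. All but 6 contained CCGG, the site cut by MspI, the enzyme usual for RRBS.

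Promoters of cell type marker genes were described, since DNA gives no RNA level. Of 22 markers, 10 had a qualified promoter site. Promoters of the epithelial genes Epcam (4.51% and 5.47% in parental, 5.77% and 4.56% in resistant tumors) and Cdh1 (6.25% and 6.04%, 5.76% and 5.83%) had low methylation in all tumors, as had Krt18 (5.69% and 4.68%, 2.70% and 4.72%). The epithelial gene Cldn4 (3 sites) did not, with 39.8% and 30.7% in parental and 35.5% and 16.7% in resistant tumors. The promoter of Nkx2-1, the lung lineage factor, was at 9.86% and 14.5% in parental and 12.7% and 18.7% in resistant tumors. Of 5 leukocyte markers, Cd3e alone had sites, 2 in number, at 81.2% and 75.8% in parental and 81.6% and 46.6% in resistant tumors. Of 4 fibroblast markers, Pdgfrb had 3 sites at 27.4% and 26.4%, and 23.9% and 24.2%, and Col1a1 had 1. Of 4 endothelial markers, the promoter of Kdr was at 8.48% and 13.2%, and 11.4% and 26.8%, and Pecam1 had 1 site. Low promoter methylation was thus not limited to epithelial genes, since that of Kdr was low in parental tumors too. These few sites therefore could not check the labelled cell type and gave no measure of the share of host cells.

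The first question was how methylated far introns were in each line. They were highly methylated in parental tumors and less so in resistant tumors, and the lower level was spread over most windows and genes. Mean methylation over windows was 79.0% and 77.9% in parental and 74.0% and 67% in resistant tumors. Both resistant tumors lay below both parental tumors, and resistant replicate 2 lay lowest. Resistant replicate 2 also had the most sites read at least once, 6377285 against 3772295 in resistant replicate 1 and 2770733 and 2695851 in parental tumors. The part of this breadth in the difference was not tested. The mean of the line was 78.5% ± 0.766 (SD, n = 2) in parental and 70.5% ± 4.96 (SD, n = 2) in resistant tumors. The difference came to −8.02 percentage points, more than both SDs, with a two-sided exact permutation p = 0.333. With 2 tumors in each line no smaller p exists, so no single value compared between the lines could reach 0.05. The size rested in large part on resistant replicate 2, without which the difference was −4.51 points. With each gene counted once, the mean was 79.8% ± 0.623 in parental and 72.5% ± 4.44 in resistant tumors (difference −7.30 points), or −4.16 without resistant replicate 2.

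The resistant tumors had fewer highly methylated windows and more intermediate ones. Windows at 80% or more made up 63.8% and 60.9% of the windows in parental tumors and 50.8% and 40.6% in resistant tumors. Windows from 20 to 50% made up 7.62% and 8.84% in parental and 11.4% and 18.1% in resistant tumors. Windows under 20% made up 2.80% and 3.27% in parental and 3.64% and 7.23% in resistant tumors. In each of these classes the lines did not overlap.

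The resistant mean was lower in 8891 windows (81.3%, against 75.3% of all windows and 78.0% of all those with up to 19 sites), with a median difference of −5.93 points. The middle of the distribution ran from −13.9 points at the lower quartile to −0.925 at the upper quartile. In 3873 windows (35.4%) methylation was lower by 10 points or more, and in 1372 (12.5%) by 20 points or more. It was higher by at least 10 points in 125 windows, and 2430 windows (22.2%) differed by less than 2 points. Lower methylation was thus common in the resistant line, in far introns as in the other windows, and higher methylation rare. Both resistant tumors lay below both parental tumors in 5377 windows (49.2%), against 42.9% of all windows tested and 46.0% of those with up to 19 sites. They lay above them in 613 (5.61%), against 6.23% and 5.90%. On each of the 19 autosomes the mean over windows was lower in the resistant line, from −9.01 points on chromosome 6 to −6.37 on chromosome 15. With resistant replicate 2 left out it was still lower on each, from −5.68 points on chromosome 8 to −3.43 on chromosome 15.

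Tests of single windows that count the spread between tumors separated the lines at few loci when the replicate number was not used as a block. edgeR's quasi-likelihood test, which counts the spread between tumors, called 1 far-intron window of 10934 at an adjusted p under 0.05 (0.149% of all windows were called). At an unadjusted p under 0.05, 2019 far-intron windows (18.5%) were lower in the resistant line, against 14.9% of all windows, and 62 were higher. The count of calls depended on the tumors used. It was 20 without parental replicate 1 (0.183%, against 0.629% of all windows) and 14 without parental replicate 2 (0.128%, against 0.590%). It was 509 without resistant replicate 1 (4.66%, against 3.64%). It was 0 without resistant replicate 2 (0.0603% of all windows), where 853 windows (7.80%, against 7.08% of all) had an unadjusted p under 0.05. limma, run on log2 ratios of methylated over unmethylated reads, called 0 windows, with 2460 (22.5%, against 16.7% of all windows) at an unadjusted p under 0.05. Among the gene sums, edgeR called 0 of 4006 genes on their far introns (0.0542% of all gene parts were called), with a smallest adjusted p of 0.232. At an unadjusted p under 0.05, 868 genes (21.7%) were lower and 26 higher, against 12.2% of all gene parts lower. limma also called 0 genes, with 985 (24.6%, against 13.9% of all gene parts) at an unadjusted p under 0.05. With the replicate number as a block, edgeR called 2538 far-intron windows (23.2%, against 19.7% of all windows). It then called 1129 genes (28.2%, against 16.98% of all gene parts), though the labels name no animal, day or batch for this number.

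Far introns were set against the other parts of the genome to see where their difference stood. Exons outside promoters, also more than 5 kb from any TSS, were more methylated than introns in every tumor, and intergenic windows less. Exon windows (4262) had 85.6% and 85.3% in parental and 82.1% and 77.3% in resistant tumors (difference −5.78 points). Intergenic windows (14082) had 74.8% and 73.0% in parental and 68.3% and 59.4% in resistant tumors (difference −10.02 points). The difference in far introns lay between them. The differences were −3.38 points in exons and −5.58 in intergenic windows without resistant replicate 2.

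Taken per tumor, far introns lay below exons by −6.55 and −7.37 points in parental and by −8.09 and −10.3 points in resistant tumors. The gap was wider in the resistant line by −2.25 points (two-sided exact permutation p = 0.333), or −1.13 without resistant replicate 2. Far introns lay above intergenic windows by 4.22 and 4.97 points in parental and by 5.66 and 7.53 points in resistant tumors. This gap was wider in the resistant line by 2.0 points (two-sided exact permutation p = 0.333), or 1.07 without resistant replicate 2. Neither pair of lines overlapped. Windows near a TSS and outside promoters (20621) went from 65.6% ± 0.565 to 60.4% ± 2.35, and promoter windows (11447) from 28.6% ± 1.53 to 26.5% ± 0.0873.

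The next question was whether methylation of far introns depended on gene length. The parental tumors had similar levels in short and long genes, and the resistant tumors had lower levels in genes of 500 kb or more, though this order depended on the genes and windows counted. In genes under 20 kb (306 genes, 369 windows) methylation was 76.4% and 76.9% in parental and 72.3% and 67.8% in resistant tumors (difference −6.60 points). In genes of 500 kb or more (203 genes, 1609 windows) it was 78.5% and 76.5% in parental and 71.3% and 61.6% in resistant tumors (difference −11.0 points). The groups between them differed by −7.18 points (20 to 50 kb), −7.00 (50 to 100 kb), −7.28 (100 to 200 kb) and −8.53 (200 to 500 kb). The difference was thus nearly level up to 200 kb and larger above it. With resistant replicate 2 left out it was −4.31 points under 20 kb and −6.17 points at 500 kb or more. Of the 203 longest genes, 198 had a lower mean in the resistant line, against 248 of 306 of the shortest. At an unadjusted p under 0.05 in edgeR's test, 48.8% of genes of 500 kb or more were lower, against 28.9% from 200 to 500 kb and 16.5% to 20.4% in the shorter groups. None of these genes passed the adjustment. Genes of 500 kb or more also had more windows each, with 1609 windows in 203 genes against 369 in 306. The test of a gene sums reads over its windows, so these shares were not matched for the amount of data per gene. The part of this in the counts of lower genes was not tested.

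Per tumor, long minus short genes came to 2.12 and −0.448 points in parental and to −1.03 and −6.15 points in resistant tumors. The lines did not overlap, though parental replicate 2 and resistant replicate 1 lay close. The difference between the lines was −4.42 points (two-sided exact permutation p = 0.333), and it was −1.86 without resistant replicate 2 and −6.98 without resistant replicate 1. Windows of long genes also lay farther from a TSS, at a median of 32.6 kb against 7.25 kb in the shortest genes. In windows 5 to 20 kb from the nearest TSS, long minus short genes came to 1.16 and −1.08 points in parental and −0.936 and −5.00 points in resistant tumors. There the lines overlapped and the difference was −3.01 points (two-sided exact permutation p = 0.667). With windows of 5 to 19 sites, long minus short genes came to 8.43 and 5.86 points in parental and to 5.23 and −0.115 points in resistant tumors, so long genes were then the higher ones except in resistant replicate 2, where they were level with short genes.

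Some of the longest gene models span many other genes. Gm20388, a model of 4435 kb on chromosome 8 (119910841 to 124345722) that holds 71 other protein-coding genes, gave 274 of the windows in genes of 500 kb or more. Fgfr2, annotated here over 2961 kb of chromosome 7 (130162451 to 133123350) with 29 other genes inside, gave 58. Methylation in Gm20388 was 67.5% and 66.3% in parental and 61.0% and 53.8% in resistant tumors, and in Fgfr2 it was 75.6% and 72.1%, and 67.3% and 59.0%. Both resistant tumors were lower in each. Without the 12 genes that span at least 5 others, a choice made after seeing the data, genes of 500 kb or more had 81.2% and 78.8% in parental and 73.8% and 63.3% in resistant tumors (197 genes, 1258 windows). The difference was −11.5 points, and long minus short genes differed between the lines by −4.87 points. Per tumor, long minus short genes then came to 4.79 and 1.92 points in parental and to 1.44 and −4.48 points in resistant tumors, so long genes were the lower ones in resistant replicate 2 alone. The same held with each gene counted once, where resistant replicate 1 was at 0.995 and resistant replicate 2 at −4.76 points. The differences of Gm20388 and Fgfr2 were −5.92 and −6.53 points without resistant replicate 2, against −9.53 and −10.7 with all tumors.

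Among the longest genes, methylation was lower in the resistant line in all those named for their length. Cntnap2, a neurexin-like adhesion protein of neurons (2245 kb, 9 windows), had 87.3% and 86.6% in parental and 78.8% and 62.9% in resistant tumors (difference −16.1 points). Lrp1b, a member of the low-density lipoprotein receptor family (2058 kb, 5 windows), had 87.1% and 85.0%, and 75.3% and 53.5%, a difference of −21.7 points. Fhit, a hydrolase of dinucleoside polyphosphates at a fragile site (1612 kb, 5 windows), had 85.7% and 79.7%, and 74.5% and 56.9%, a difference of −17.0 points. In each of these genes every window was lower in the resistant line, and resistant replicate 2 was lowest. Left without resistant replicate 2, Cntnap2, Lrp1b and Fhit differed by −8.13, −10.7 and −8.19 points. Csmd1, a membrane protein that regulates complement (1643 kb, 7 windows), had 80.3% and 76.8%, and 66.2% and 54.2%, a difference of −18.3 points. Macrod2, a hydrolase of ADP-ribose marks (11 windows), had 93.0% and 91.3%, and 86.3% and 81.3%, a difference of −8.35 points. The sizes depended on the choices made. With windows of 5 to 19 sites Cntnap2, Fhit and Macrod2 differed by −9.9, −26.2 and −5.26 points. Lrp1b differed by −13.1 points with a minimum of 50 reads. The receptor tyrosine phosphatase Ptprd (3 windows) had 82.0% and 77.2%, and 76.0% and 65.3%, a difference of −8.91 points that was −0.317 with the basic annotation, −16.1 with windows of 5 to 19 sites, −3.56 without resistant replicate 2 and −14.3 without resistant replicate 1. The adhesion molecule Lsamp (4 windows) had 88.8% and 81.7%, and 81.5% and 68.7%, a difference of −10.2 points that was −3.80 without resistant replicate 2 and −1.61 with windows of 5 to 19 sites. The synaptic scaffold Dlg2 (9 windows) had 72.3% and 71.7%, and 68.8% and 59.1%, a difference of −8.13 points that was −3.28 without resistant replicate 2. The difference of Dlg2 was −4.21 points with merged strands and −12.8 with a minimum of 50 reads. Lines did not overlap in any of these genes, and edgeR's adjusted p for the 10 longest genes was 0.267 or more.

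Distance from a TSS and the state of the gene's own promoter both went with the size of the difference. Windows 5 to 10 kb from the nearest TSS differed by −7.01 points, and those at 100 kb or more (436 windows) by −12.1 points. At the greatest distance methylation was 80.3% and 77.8% in parental and 72.4% and 61.4% in resistant tumors, and 90.8% of windows were lower. When resistant replicate 2 was left out the difference was −4.04 points at 5 to 10 kb and −6.66 at 100 kb or more. The parental level hardly moved with distance, from 78.3% and 77.7% at 5 to 10 kb.

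Genes were also divided by promoter methylation, taken as the mean over all 4 tumors where a promoter had at least 3 qualified sites. In the 2240 genes with a promoter under 10%, far introns had 82.5% and 82.7% in parental and 79.8% and 76.1% in resistant tumors (difference −4.65 points). In the 798 genes with a promoter from 10 to 50% they had 75.6% and 72.6% in parental and 68.3% and 58.0% in resistant tumors (difference −10.9 points). In the 211 genes with a promoter at 50% or more they had 78.5% and 75.5%, and 70.4% and 60.4%, a difference of −11.7 points. Far introns of genes with an unmethylated promoter thus stayed closer to the parental level. Both resistant tumors were below both parental tumors in 44.9%, 68.2% and 71.1% of these genes, against 54.2% of all 4006 genes. Without resistant replicate 2 the differences were −2.81, −5.78 and −6.67 points.

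Promoter state and length went together, since a promoter under 10% was found in 157 of 223 genes under 20 kb with a promoter value (70.4%) and in 51 of 169 genes of 500 kb or more (30.2%). Within each promoter class the longest genes still had the larger difference. Without the genes that span at least 5 others, promoters under 10% went with differences of −4.75 points in genes under 20 kb and −8.30 points in the 48 genes of 500 kb or more. From 20 to 500 kb these genes lay between −5.80 and −4.70 points. With promoters at 10% or more, the difference went from −9.0 points in genes under 20 kb (66 genes) to −13.2 points in the 118 genes of 500 kb or more. With resistant replicate 2 left out, the shortest and longest genes differed by −3.40 and −4.58 points with promoters under 10%, and by −5.44 and −7.28 points with promoters at 10% or more, so the step with length was smaller. These groups were formed after seeing the data and carry no test.

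Windows were also divided by repeats, CpG count, GC content, coverage and place in the gene, and CpG count went with the widest range of differences. Most of that range came with resistant replicate 2. Windows in which every site lay in a masked repeat (534) were at 89.1% and 87.8% in parental and 83.7% and 75.4% in resistant tumors (difference −8.88 points), and windows without a masked site (8567) differed by −7.90 points. CpG-poor windows differed more. With under 10 CpGs in the reference (910 windows) the difference was −10.4 points, and with 30 or more (677 windows) it was −4.87 points, from 71.1% and 72.9% to 68.5% and 65.7%. With that tumor left out, the differences were −5.46 and −3.48 points by CpG count, and −4.73 and −4.49 points in windows with all sites and with no site in repeats. Across 4 groups of similar size by GC content the difference ran from −8.28 to −7.64 points, although the parental level went from 83.8% and 82.2% in the lowest group to 73.4% and 72.8% in the highest. Across 4 groups of similar size by coverage it ran from −8.31 to −7.64 points. The first, middle and last parts of the gene, each of the same length, differed by −8.26, −8.11 and −7.76 points.

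Introns were also compared with the intergenic windows up to 500 kb on either side of their gene. Across 1117 genes with at least 3 windows of each kind, the difference in the gene and the difference in its flanks had a Pearson correlation of 0.206 and a Spearman rank correlation of 0.198. Genes are not independent replicates and share the same 4 libraries. In 432 genes whose flanks were lower by 10 to 20 points the introns differed by −9.04 points, in 666 genes with flanks lower by up to 10 points by −7.34 points, in 7 genes with flanks lower by more than 20 points by −14.7 points, and in 12 genes with higher flanks by −3.81 points. With resistant replicate 2 left out these were −4.93, −4.09, −8.50 and −4.51 points, so the 12 genes with higher flanks were then no longer the least different. In these 12 genes introns were at 82.0% and 85.1% in parental and 79.0% and 80.4% in resistant tumors.

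Lists of genes were then described by function. Counts are set beside those of all 4006 genes with far-intron windows, of which both resistant tumors lay below both parental tumors in 54.2% and above them in 4.62%, with a median difference of −5.75 points. Of all these genes, 85.2% had a lower mean in the resistant line, and 21.7% had an unadjusted p under 0.05 in edgeR's test on the lower side.

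Neuronal adhesion and synapse genes encode surface and scaffold proteins of neurons, are mostly silent in epithelium and are among the longest of all genes. Of 42 listed, 39 had far-intron windows (254 windows), 38 of them of 500 kb or more. Their mean was 79.9% and 77.1% in parental and 71.9% and 60.5% in resistant tumors, and the median difference was −12.6 points. All 39 had a lower mean in the resistant line, 34 without overlap, and 19 had an unadjusted p under 0.05 in edgeR's test. None was called after adjustment. These counts were like those of all 203 genes of 500 kb or more, of which 97.5% were lower and 48.8% had an unadjusted p under 0.05, with a mean difference by gene of −11.5 points. The promoters of the list had a median methylation of 44.4%, and 2 of the 36 genes with a promoter value were under 10%. That compares with 68.9% of all genes with a promoter value and 30.2% of those of 500 kb or more. Length, promoter state and neuronal function therefore cannot be told apart in this list. Without resistant replicate 2 the mean difference of −12.3 points was −6.55.

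Cdh13, a cadherin held at the membrane by a lipid anchor (32 windows), had 82.0% and 79.2% in parental and 73.3% and 61.8% in resistant tumors (difference −13.0 points). It was lower in 31 of its windows. Dlgap2, a scaffold of the postsynaptic density (11 windows), had 85.0% and 79.6%, and 71.4% and 59.6%, a difference of −16.8 points. The teneurins, large adhesion proteins that guide axons, differed from each other. Tenm3 (13 windows) had 81.7% and 77.9%, and 74.7% and 65.1%, a difference of −9.92 points. Tenm4 (15 windows) had 81.3% and 80.6%, and 79.0% and 77.4%, the smallest difference of the list at −2.72 points, with 7 of its windows lower. With windows of 5 to 19 sites only, the differences of Tenm3 and Tenm4 were −5.22 and 0.809 points. Grid1, a glutamate receptor of the delta type (7 windows), had the largest difference of the list at −21.5 points, from 62.1% and 59.0% to 48.0% and 29.97%. With resistant replicate 2 left out, Cdh13, Dlgap2, Tenm3 and Grid1 differed by −7.26, −10.9, −5.08 and −12.5 points.

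Common fragile site genes are long genes at loci that break under replication stress. All 13 listed had windows, all were of 500 kb or more, and 4 of them also stand in the neuronal list. Their mean was 84.4% and 82.2% in parental and 76.7% and 65.7% in resistant tumors, with a median difference of −12.2 points. All 13 were lower, 12 without overlap, and 10 had an unadjusted p under 0.05 in edgeR's test. Among all genes of 500 kb or more, 97.5% were lower and 48.8% had an unadjusted p under 0.05. The larger share in this list rests on 13 genes and was not tested. Of the 11 genes with a promoter value, 7 were under 10%. All 13 are long, so length and the trait of the list cannot be told apart. Wwox, an oxidoreductase with WW domains (47 windows), had 84.6% and 83.8% in parental and 79.5% and 73.6% in resistant tumors (difference −7.70 points), with 41 windows lower. The difference was −4.76 points without resistant replicate 2 and −4.02 with windows of 5 to 19 sites. Without resistant replicate 2 the mean difference of the list, −12.1 points, was −6.63.

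Broadly transcribed long genes, which encode chromatin regulators, kinases and RNA factors used in most cells, stood at the other end. Of 45 listed, 21 had windows (74 windows), and all 21 had a promoter under 10%, against 68.9% of all genes with a promoter value. Their mean was 82.4% and 83.6% in parental and 80.9% and 81.6% in resistant tumors, and the median difference was −1.02 points. The lines did not overlap in this mean, and the resistant tumors lay within a point of each other. The mean was lower in 18 genes, a share like that of all genes, but by little, and in 5 without overlap, while 1 gene lay above without overlap, and 0 had an unadjusted p under 0.05. Arid1b, a subunit of the BAF remodeller (11 windows), had 69.5% and 72.4%, and 70.2% and 70.6%, and Rere, a nuclear receptor coregulator (6 windows), had 63.4% and 62.1%, and 62.7% and 61.9%. Both overlapped between the lines. Cux1, a homeodomain factor (5 windows), had 59.0% and 69.5%, and 52.1% and 56.0%, the largest difference of the list at −10.2 points. That difference was −4.94 without parental replicate 2, −15.5 without parental replicate 1 and −2.85 with windows of 5 to 19 sites. Only 1 of the 21 reaches 500 kb, so the list differs from the previous lists in length and promoter state as well as in function.

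Leukocyte genes and stromal genes were included because host cells are part of these tumors. Of 32 leukocyte genes, 25 had windows. Their mean was 73.6% and 75.8% in parental and 70.9% and 65.6% in resistant tumors, with a median difference of −5.94 points. Without resistant replicate 2 the mean difference of −6.46 points was −3.83. The mean was lower in 20 genes, 13 without overlap, 1 lay above without overlap, and 3 had an unadjusted p under 0.05 on the lower side. Dock2, a protein of lymphocyte migration (9 windows), had 76.4% and 67.3% in parental and 64.4% and 42.9% in resistant tumors (difference −18.2 points). Skap1, an adaptor of T-cell receptor signalling (14 windows), had 83.9% and 76.9%, and 73.5% and 61.4%, a difference of −12.9 points. Bcl11b, a T-lineage transcription factor (13 windows), had 78.1% and 80.1%, and 75% and 61.1%, a difference of −11.1 points. Runx1, a factor of blood development (8 windows), had 68.5% and 67.8%, and 65.9% and 63.6%, a difference of −3.38 points that was 1.28 with windows of 5 to 19 sites only. With resistant replicate 2 left out, Dock2, Skap1, Bcl11b and Runx1 differed by −7.49, −6.92, −4.15 and −2.19 points. The share of the list without overlap on the lower side (52.0%) lay near that of all genes. At an unadjusted p under 0.05 in edgeR's test, 3 of 25 genes stand against 21.7% of all genes, a difference that was not tested.

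Of 24 fibroblast and endothelial genes, 14 had windows, with a mean of 84.7% and 83.7% in parental and 81.8% and 74.4% in resistant tumors and a median difference of −4.16 points. Without resistant replicate 2 the mean difference of −6.10 points was −2.37. The mean was lower in 10 genes, 6 without overlap, and 2 lay above without overlap. In edgeR's test 3 of the 14 had an unadjusted p under 0.05 on the lower side. Mecom, a zinc finger factor (8 windows), had 78.0% and 79.2%, and 73.0% and 66.5%, a difference of −8.87 points. Erg, an endothelial transcription factor (6 windows), had 70.1% and 60.0%, and 59.3% and 48.5%, a difference of −11.1 points. Mecom and Erg differed by −5.60 and −5.69 points without resistant replicate 2, and Erg by −6.10 without parental replicate 1 and −5.13 with a minimum of 50 reads. Of 4 collagen genes with windows, Col6a3 (82.8% and 83.3%, 78.3% and 71.4%) was lower without overlap, Col4a1 (69.7% and 81.7%, 72.5% and 74.3%) was lower with overlap, and 2 were not lower. Col5a1, a chain of fibrillar collagen (7 windows), had 85.1% and 86.8%, and 88.4% and 86.5%, and Col4a2, a chain of basement membrane collagen (5 windows), had 91.5% and 90.5%, and 92.4% and 92.5%. The part that the share of host cells has in these values was not tested.

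Among the 601 genes with at least 5 far-intron windows, 573 (95.3%, against 85.2% of all 4006) had a lower mean in the resistant line and the median difference was −8.00 points. Both resistant tumors lay below both parental tumors in 426 (70.9%, against 54.2% of all 4006) and above them in 5 (0.832%, against 4.62%). The means of these genes rest on more windows, and the part of this in the shares was not tested. The genes named next were picked for the size of their difference without overlap, so their values describe and do not test. Mcf2l, a guanine nucleotide exchange factor (chromosome 8, 12873806 to 13020905), had the largest decrease, with 80.3% and 76.2% in parental and 59.5% and 50.5% in resistant tumors (difference −23.3 points) in 6 windows. Cntfr, the receptor chain for ciliary neurotrophic factor (chromosome 4, 41657498 to 41697089), had 48.5% and 37.7%, and 23.5% and 17%, a difference of −22.8 points. In both genes the distance between the lines exceeded that between tumors of a line. The sizes depended on the windows kept. The difference of Cntfr was −2.05 points with windows of 5 to 19 sites and −14.3 with a minimum of 50 reads, and that of Mcf2l was −13.6 with windows more than 10 kb from a TSS.

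Kcnip1, a subunit of voltage-gated potassium channels, had 67.1% and 65.0% in parental and 54.1% and 33.5% in resistant tumors (difference −22.3 points). Cacna1e, a voltage-gated calcium channel, had 89.0% and 85.3%, and 78.1% and 51.7%, a difference of −22.2 points. Tcf7l1, a transcription factor of Wnt signalling, had 83.5% and 80.4%, and 71.3% and 49.2%, a difference of −21.7 points. In these genes resistant replicate 2 stood far below resistant replicate 1, and without it they differed by −11.98, −9.03 and −10.6 points. Cacna1e differed by −12.9 points with windows of 5 to 19 sites, and Tcf7l1 by −12.9 with a minimum of 10 reads. Nxpe4 (8 windows) had 76.4% and 69.2%, and 56.7% and 44.1%, a difference of −22.4 points. The transcriptional regulator Mn1 (5 windows) had 73.6% and 64.3%, and 54.9% and 39.5%, a difference of −21.7 points that was −14.0 without resistant replicate 2. Adarb2, a brain protein of the RNA-editing family (7 windows), had 85.5% and 85.0%, and 75.4% and 53.9%, a difference of −20.6 points. It was −9.84 without resistant replicate 2 and −10.7 with windows of 5 to 19 sites. Lrp1b and Grid1, given above, complete the list of the 10 largest decreases. The adjusted p in edgeR's test was 0.273 or more for each of the 10.

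Among genes with at least 5 windows, the largest increase was 4.32 points, in Tanc1, a postsynaptic scaffold (5 windows). It had 81.9% and 87.2% in parental and 90.1% and 87.6% in resistant tumors. Magi1, a scaffold of tight junctions (6 windows), had 74.6% and 75.2%, and 81.0% and 76.9%, 4.02 points higher. Wdfy3, an adaptor of selective autophagy (7 windows), had 80.9% and 82.6%, and 82.6% and 86.6%, 2.86 points higher, and its difference was −0.810 with windows of 5 to 19 sites only. Zhx2, a homeobox repressor (7 windows), was 2.32 points higher and Col4a2 1.49 points higher. The increases were unsteady. Tanc1 was 1.64 points higher without parental replicate 1, Magi1 1.96 without resistant replicate 1, Wdfy3 0.890 without resistant replicate 2, Zhx2 0.711 without parental replicate 1 and Col4a2 0.980 without parental replicate 2. Among genes with at least 5 windows, increases were thus small beside the decreases. The promoters of the 5 genes named here had a methylation of 1.29% to 1.67%.

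Bmp7 encodes a secreted ligand of the BMP family (chromosome 2, 172868012 to 172940321, minus strand). Its 6 far-intron windows (34 sites) had 78.9% and 72.2% in parental and 71.7% and 59.4% in resistant tumors. The lines did not overlap, but parental replicate 2 and resistant replicate 1 lay close. The difference was −10.05 points, and −3.90 without resistant replicate 2, with 4 windows lower and an adjusted p of 0.570 in edgeR's test.

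Single windows with the smallest unadjusted p, at least 5 sites and no overlap between the lines show what such introns look like. The sequences that follow are of GRCm38 (mm10), plus strand, with the measured CpGs in capitals, and were chosen to show a lowly methylated CpG-dense stretch, methylated introns that were lower in the resistant line, and loci that were higher.

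The window called by edgeR lies in intron 3 of Macrod1, a hydrolase of ADP-ribose marks (plus strand gene, window chr19:7166001-7167000, 34.3 kb from the nearest TSS). Its 14 sites, with 165 to 324 reads each, had 11.5% and 14.6% in parental and 2.17% and 2.02% in resistant tumors. The resistant tumors were nearly unmethylated and almost equal. The difference was −11.0 points, with a log2 ratio of odds of −2.81 and an adjusted p of 0.0184. The call was lost without resistant replicate 2 (adjusted p = 0.0926 in edgeR) and with limma (adjusted p = 0.242). The window has 55 CpGs and a GC content of 62.2%, unlike most far introns, and the sites lie in chr19:7166161-7166214:
Macrod1: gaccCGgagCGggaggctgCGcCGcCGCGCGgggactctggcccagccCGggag

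The next windows by p were lower in the resistant line without passing the adjustment. In intron 17 of Rgs3, a regulator of G-protein signalling (chr4:62646001-62647000, 6 sites, 57 to 218 reads), methylation was 96.5% and 88.8% in parental and 69.4% and 53.9% in resistant tumors (adjusted p = 0.0832 in edgeR). In intron 2 of St6galnac5, a sialyltransferase, a window that also lies in Pigk (chr3:152866001-152867000, 7 sites, 135 to 219 reads), it was 93.9% and 91.3%, and 70.4% and 55.3% (adjusted p = 0.0982 in edgeR). Here nearly complete methylation in the parental line stood against intermediate levels in the resistant line. The sequences span chr4:62646448-62646576 and chr3:152866150-152866275:
Rgs3: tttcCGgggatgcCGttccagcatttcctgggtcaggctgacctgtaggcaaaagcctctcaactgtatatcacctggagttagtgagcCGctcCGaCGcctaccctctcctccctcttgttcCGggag
St6galnac5: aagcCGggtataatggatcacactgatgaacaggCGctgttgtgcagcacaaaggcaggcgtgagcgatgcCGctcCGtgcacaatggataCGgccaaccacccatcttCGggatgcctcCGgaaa

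In intron 1 of Sox13, a transcription factor of the Sox family (chr1:133418001-133419000, 8 sites), methylation was 8.19% and 11.4% in parental and 0.625% and 1.50% in resistant tumors (adjusted p = 0.0938 in edgeR). In intron 9 of Sh3pxd2a, a scaffold of podosomes (chr19:47283001-47284000, 6 sites), it was 97.5% and 98.3%, and 88.9% and 88.2% (adjusted p = 0.116 in edgeR). These differences of −8.71 and −9.34 points were small and even between the tumors of a line.

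Of the higher windows, the 3 with the smallest p had adjusted p of 0.155 to 0.190 in edgeR's test. In intron 1 of Bcr, the gene of the breakpoint cluster region (chr10:75100001-75101000, 5 sites, 32 to 74 reads), methylation was 86.7% in both parental tumors and 98.8% in both resistant tumors. In intron 4 of Atp6v0a2, a subunit of the vacuolar proton pump (chr5:124637001-124638000, 5 sites, 34 to 75 reads), it was 79.1% and 88.6%, and 97.6% and 97.4%. In intron 1 of Esrrb, an orphan nuclear receptor (chr12:86402001-86403000, 12 sites, 77 to 200 reads), it was 6.78% and 15.0%, and 21.3% and 39.9%. Bcr and Atp6v0a2 were already highly methylated in the parental line, while Esrrb was not. The sequences span chr10:75100554-75100605 and chr12:86402857-86403001:
Bcr: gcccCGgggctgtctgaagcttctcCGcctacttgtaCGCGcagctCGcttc
Esrrb: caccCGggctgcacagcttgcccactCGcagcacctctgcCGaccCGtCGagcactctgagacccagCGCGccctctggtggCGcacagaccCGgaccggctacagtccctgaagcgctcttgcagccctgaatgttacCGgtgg

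Windows at the limits of the choice were as follows. Far-intron windows with 2 sites (6198) differed by −9.26 points and those with 3 sites by −8.67 points. Windows with 17 to 19 sites (30) had 57.0% and 58.0% in parental and 55.6% and 54.5% in resistant tumors, and those with 20 to 22 sites (19) had 38.3% and 43.1%, and 36.7% and 36.4%. Intron windows 4 to 5 kb from a TSS differed by −6.83 points and those at 5 to 6 kb by −7.20 points.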

How the data were processed

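Methylation was measured by RRBS in 4 tumors, 2 per line, grouped by the sample titles. The authors trimmed reads with Trim Galore 0.4.1 and cutadapt 1.9.1, mapped them to mm10 with Bismark and Bowtie 1.1.2, and called methylation with tools of Bismark and their own code. They deposited per tumor the coverage of each CpG and strand as a count of reads, without normalization or minimum. The authors also deposited the methylated share of these reads as a percent, rounded to 0.1. Methylated reads were recomputed as coverage times percent. At 20 reads, 1 read is worth 5 points, so means over sites are given. PCR copies cannot be told apart, and precision covers tumors, not molecules.

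Exons, introns and TSS were taken from the GENCODE comprehensive annotation of GRCm38 (vM21), promoters (1000 bp before to 500 bp after a TSS) from its basic set. All sites lay on the expected base of the reference. Single values were set against each other by an exact permutation test, two-sided. Counts summed over a window, or over the far-intron windows of a gene, were tested by edgeR 4.0.16 (quasi-likelihood, an effect for each tumor, the line as the term tested) over all 78004 windows or 31372 gene parts, with Benjamini-Hochberg adjustment at 0.05, in R 4.3.3. The edgeR step was tested on simulated data. Python 3.11.15, numpy 2.4.6, scipy 1.17.1 and pandas 2.3.3 were used for the rest.

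Alternatives were coverage minimums of 10 and 50 reads, merged strands, each tumor left out, 5 to 19 sites, 10 kb from a TSS, pooled reads, wider windows, windows in exactly 1 gene, a replicate block, limma 3.58.1 (1 read added), a logistic test with Stouffer scores and a limit on the level. The basic annotation, genes that span others, repeats and promoter state were added after the data had been seen. Named genes were chosen by length (10 longest with at least 3 windows), by the 10 largest decreases and 5 largest increases without overlap among genes with at least 5 windows, and by the 4 genes of each list with most windows, plus Bmp7; some of these are not reported here. The 5 lower and 3 higher windows were those with the smallest p, at least 5 sites and no overlap. The windows and lists were chosen with earlier results of these data known.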

Additional observations from a re-analysis of the deposited data

Results flagged for a closer look

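Reads on chromosome Y, which no comparison used, were present in all tumors although the hosts were female. Coverage on chromosome Y, in ppm of autosomal coverage, was 413 in parental replicate 1, 257 in parental replicate 2, 563 in resistant replicate 1 and 180 in resistant replicate 2. The lines overlapped in this value. In each line the tumor with the lower value also had the lower far-intron methylation, and the part of this in the differences between tumors was not tested.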

How the results depend on the processing

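The difference in far-intron windows was negative under all 17 alternatives, from −8.43 to −7.18 points where all tumors were kept and from −11.5 to −4.51 where a tumor was left out. By gene it was negative under all 14, from −7.68 to −6.72 with all tumors and from −10.4 to −4.16 with a tumor left out. Long minus short genes differed by −5.23 to −3.01 points with all tumors and by −6.98 to −1.86 with a tumor left out, and in windows 5 to 20 kb from a TSS the lines overlapped. The gap to exons ran from −2.28 to −1.79 points with all tumors and from −3.36 to −1.13 with a tumor left out, and the gap to intergenic windows from 1.56 to 2.53 and from 1.07 to 2.94. The permutation p cannot pass 0.05 in this design, so these directions say nothing of a threshold.

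Counts of calls depended on the test. Far-intron windows called were 1 in edgeR, 0 with a minimum of 10 reads (2432 at an unadjusted p under 0.05; the Macrod1 window kept an adjusted p of 0.0130 but no longer met the limit on sites), 0 with limma (2460 unadjusted), and 7173 (65.6%, against 57.4% of all windows) with the logistic test and Stouffer scores, which leave out the spread between tumors. With a tumor left out the count ran from 0 to 509, where the lone tumor of a line was assumed to vary like the others. It was 1 with a minimum of 50 reads, with merged strands and with levels of 1 to 99%. Genes called were 0 in edgeR (894 unadjusted), 0 with limma (985 unadjusted) and 2791 (69.7%, against 50.7% of all gene parts) with Stouffer scores, and 0 under the other alternatives without a block. The adjusted p of the Macrod1 window was 0.0926 without resistant replicate 2 and 0.242 with limma.

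The replicate number is shared between the lines, but the labels name no animal, day or batch for it. Same-numbered tumors deviated together across far-intron windows (r = 0.571 over 10934 windows). With 2 tumors in each line this is a single pairing, and swapping the numbers in a line would only reverse the sign of r. The value therefore cannot show what the replicate number marks. With the replicate number as a block edgeR called 2538 windows (2469 lower; 23.2%, against 19.7% of all windows) and 1129 genes (1107 lower; 28.2%, against 16.98% of all gene parts). Within replicate 1 the difference in windows was −5.05 points and within replicate 2 it was −11.0. Of 42 named genes, 37 kept the sign of their difference under every setting tried, and Wdfy3, Tenm4, Arid1b, Rere and Runx1 did not in 7 of 501 values. Windows of 3 sites and regions without CCGG limit what RRBS can show of introns.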

Other observations

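A few leukocyte genes had a far-intron window that differed widely between tumors of a line. They were picked after their values were seen. The window in Ptprc, which encodes CD45 (3 sites), had 10.2% and 25.4% in parental and 28.6% and 52.6% in resistant tumors, so it was the gene of that list that lay higher in both resistant tumors. The window in Ets1 (12 sites) had 12.0% and 52.9% in parental and 20.9% and 45.7% in resistant tumors. The window in Vav1 (4 sites) had 47.3% and 77.6%, and 47.6% and 71.6%. In all of these, replicate 2 was higher than replicate 1 in both lines, which held in 5 of the 25 leukocyte genes. In 12 of the 25, such as Ikzf3 (93.2% and 86.2%, 75.2% and 51.8%), replicate 2 was lower in both lines, the order of the mean over far introns. The breadth of the libraries also differed, with 2770733 and 2695851 sites read at least once in parental and 3772295 and 6377285 in resistant tumors.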
